A study of Mus musculus with 24 samples.

Results

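The genes described here are 9 transcription factors that specify or mark the suprachiasmatic nucleus (SCN), the pacemaker of daily rhythms in the hypothalamus: Six3, Six6, Lhx1, Zfhx3, Zfhx4, Dlx1, Dlx2, Dlx5 and Tbx3. They were taken by gene symbol from 19938 genes on the array, and all 9 were measured, each by 1 probe set. SCN tissue came from C57/BL6 mice that had been entrained to a light-dark cycle and were then held in darkness, and no group carried a further treatment, allele or agent. The series holds 24 arrays, 1 every 2 h, each with RNA pooled in equal parts from 3 mice. The second cycle is CT 42 to CT 64 and the first cycle CT 18 to CT 40, with 12 arrays each (CT, circadian time in hours). No time was measured more than once, and the labels give no age or sex, so the scatter of pools around a fitted curve serves as the error and the number of arrays limits the precision.

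SCN neurons arise from the anterior hypothalamus, and homeodomain proteins act in turn to form them. Six3 and Six6 are sine oculis homeobox regulators of eye and ventral forebrain development, and mice without Six6 or with Six3 removed from the early forebrain fail to form a normal SCN. Lhx1, a LIM-homeodomain factor, acts later, keeping SCN neuropeptides expressed and the neurons synchronised. Zfhx3 is a giant zinc finger homeodomain protein of adult SCN neurons whose mutation in mice shortens the circadian period, and Zfhx4 is its paralog. Dlx1, Dlx2 and Dlx5 are distal-less homeodomain factors of GABA-producing forebrain neurons, the class to which nearly all SCN neurons belong. Tbx3 is a T-box repressor used in the developing tuberal hypothalamus.

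All values are log2 probe set intensities. Levels of different genes are not ranked, because each probe set binds with its own strength. All 9 genes passed the filter on dim genes (mean log2 of at least 5.52, the 30th percentile of genes), with means from 6.08 to 8.26. Transcripts of Six3os1 and Dlx1as lie over Six3 and Dlx1 in the RefSeq annotation and have their own probe sets, which correlated with the genes they overlap at r = 0.50 and 0.37 over the 24 arrays. The strand that the labelling keeps is not stated, so signal from the 2 genes of such a pair cannot be told apart. Further non-coding genes without a probe set of their own here overlap Zfhx3, Zfhx4 and Tbx3.

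The labelled times were checked on 10 clock genes, all of which were called rhythmic over 24 h, among them Per2, with a peak at 9.53 h, and Nr1d1, with a peak at 3.89 h. Of 18 SCN peptide and receptor genes, 17 were above the filter, beside 13956 of all 19938 genes. Of 14 measured genes of neighbouring hypothalamic nuclei 13 were above it too, so these counts do not tell SCN from nearby tissue. Array medians lay between 6.24 and 6.36. The arrays at CT 40, CT 62 and CT 64 had narrower spreads of values (interquartile ranges 2.48, 2.67 and 2.65) than the rest (2.72 to 2.90), and stood highest in array background, the average level of 1194 odorant and pheromone receptor genes (0.34, 0.19 and 0.16 above the series mean). The mean of 7 anterior pituitary markers, 3 of them above the filter, ranged from 4.93 to 5.83 in the second cycle and from 5.09 to 7.61 in the first, where it was highest at CT 20.

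Of the 9 genes, 6 have an entry in the RefSeq promoter table (GRCm38.p6). Those of Six3, Six6 and Lhx1 are shown because these 3 genes moved together across arrays. Each sequence is the 250 bases before the annotated start, 5′ to 3′ on the gene's strand, with every CCAAT box (CCAAT on either strand, so also ATTGG) in capitals.
Six3, chr17:85620584-85620833, plus strand: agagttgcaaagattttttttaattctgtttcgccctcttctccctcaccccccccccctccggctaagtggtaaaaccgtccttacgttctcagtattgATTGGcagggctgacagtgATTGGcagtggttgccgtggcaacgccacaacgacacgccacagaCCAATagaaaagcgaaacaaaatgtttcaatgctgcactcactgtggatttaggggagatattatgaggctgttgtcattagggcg
Six6, chr12:72939632-72939881, plus strand: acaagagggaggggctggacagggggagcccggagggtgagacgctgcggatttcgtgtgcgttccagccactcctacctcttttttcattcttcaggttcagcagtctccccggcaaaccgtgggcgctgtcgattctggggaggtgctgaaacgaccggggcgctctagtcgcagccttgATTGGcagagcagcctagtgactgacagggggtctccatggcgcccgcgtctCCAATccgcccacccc
Lhx1, chr11:84525535-84525784, minus strand: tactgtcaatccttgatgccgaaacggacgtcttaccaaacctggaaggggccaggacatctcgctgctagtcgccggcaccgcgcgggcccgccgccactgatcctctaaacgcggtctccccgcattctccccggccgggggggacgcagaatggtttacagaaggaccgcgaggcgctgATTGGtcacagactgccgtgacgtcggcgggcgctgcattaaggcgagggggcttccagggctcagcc
The Six3 window held 3 CCAAT boxes, the Six6 window 2 and the Lhx1 window 1, and 33.8% of 32851 promoter windows of this length held at least 1. The box was not particular to these genes: the Dlx2 window held 1 as well, while the Zfhx3 and Dlx1 windows held none. The start used for Six3 lies inside the annotated span of the gene, so another transcript may run across this window. G and C made up 48.8% of the bases in Six3, 62.8% in Six6 and 64.8% in Lhx1, beside a median of 52.4% over all windows. Letters of the E-box (CACGTG), the D-box (TTATGTAA), the ROR element core (AGGTCA) and a homeodomain site (TAATTA), each searched on both strands, were not in the 3 windows, which says nothing of other positions. The core of the cAMP response element (TGACG) occurred once in Lhx1, once in Dlx2 and in 17.8% of all windows.

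Dlx2 is shown for its E-boxes, the sequence that the CLOCK and BMAL1 proteins bind, here in capitals.
Dlx2, chr2:71546755-71547004, minus strand: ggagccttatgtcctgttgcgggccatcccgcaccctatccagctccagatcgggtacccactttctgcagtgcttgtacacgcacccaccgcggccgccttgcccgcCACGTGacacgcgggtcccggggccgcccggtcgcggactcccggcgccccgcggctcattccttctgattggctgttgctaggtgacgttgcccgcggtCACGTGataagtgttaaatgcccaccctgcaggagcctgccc
The Dlx2 window held 2 E-boxes, and 6.02% of all windows held at least 1. The windows of Dlx1 and Zfhx3 held none. Zfhx4, Dlx5 and Tbx3 are named only.

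Six3, Six6 and Lhx1 varied from array to array, and did so together. Six6 had log2 values from 7.28 to 8.36 with a median of 8.02 in the second cycle, and from 7.56 to 8.41 with a median of 7.99 in the first. Its lowest array was CT 64 and its highest CT 20, a 2.18-fold range. The cycles overlapped over nearly their whole span, and high and low arrays followed each other within hours.

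Lhx1 ranged from 6.35 to 7.34 with a median of 6.74 in the second cycle, and from 6.44 to 7.26 with a median of 6.72 in the first. It was lowest at CT 64 and highest at CT 46, a 1.99-fold range. Six3 ranged from 6.26 to 6.97 with a median of 6.66 in the second cycle, and from 6.41 to 6.81 with a median of 6.60 in the first. It was again lowest at CT 64, but highest at CT 56. The array at CT 64 was thus the low point of all 3 genes. It was also the low point of Dlx2, and it had a narrow spread of values (interquartile range 2.65) and a raised array background. The ranges given for these genes rest in part on that array.

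**Figure D1:**
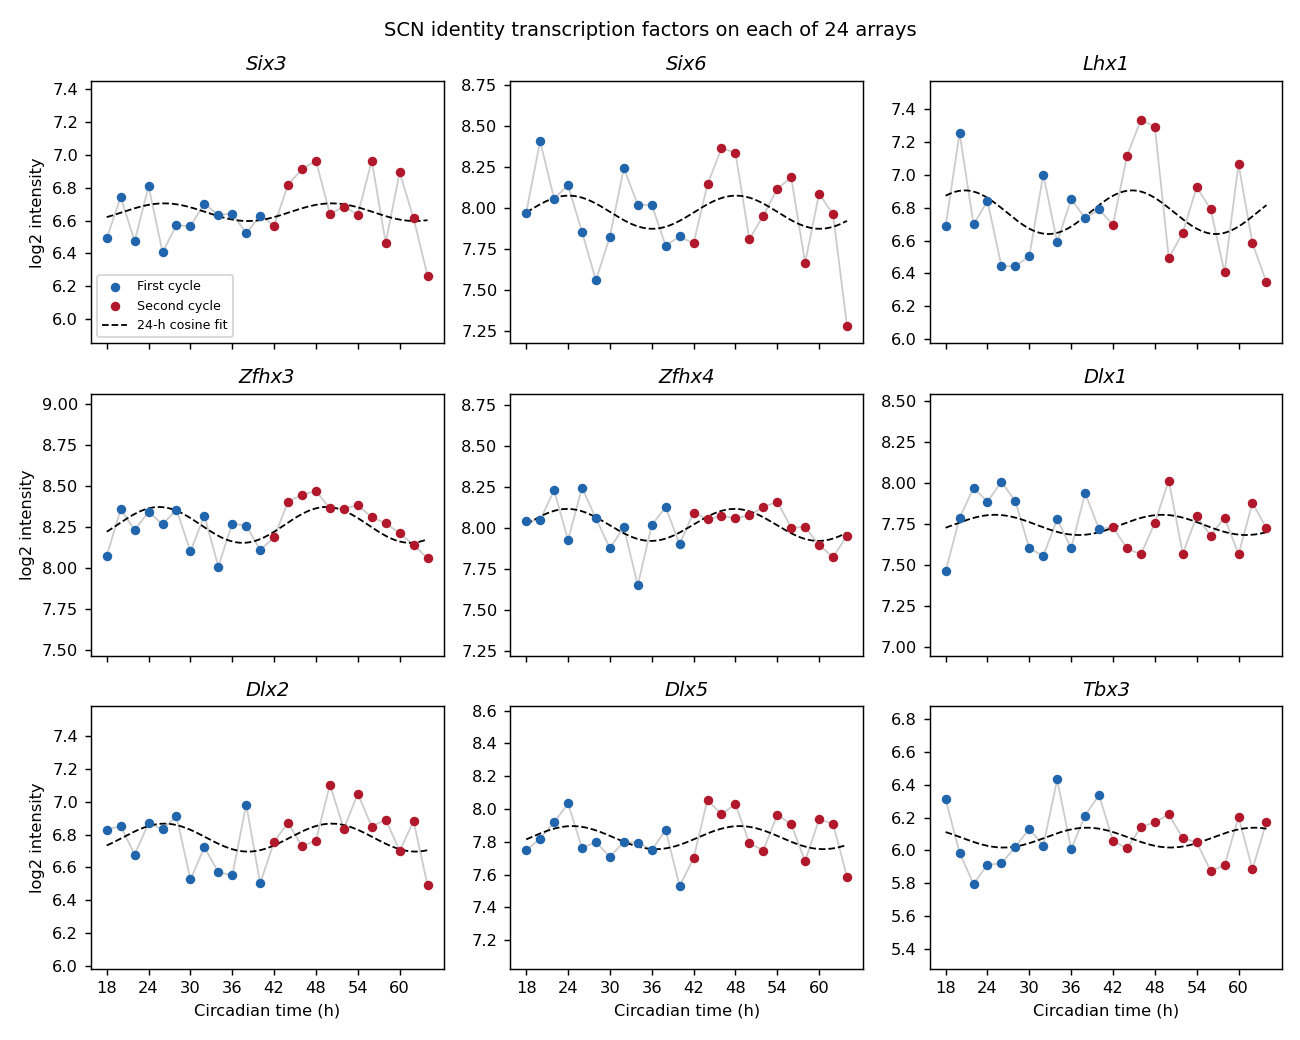
Log2 intensity (vertical axis, all panels of equal height in log2 units around the gene's mean) of the 9 genes against circadian time in hours. Points are single arrays of pooled RNA, blue for the first and red for the second cycle, grey lines join them and the dashed line is the 24-h cosine fit. Six6 and Lhx1 scatter most, and all 3 genes of the top row, and also Dlx2, reach their lowest point at CT 64.

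Set against their own means, Six3, Six6 and Lhx1 were all above on 8 arrays, all below on 10 and mixed on 6. Arrays that were high for the 3 genes included CT 20, where Six6 was 0.43, Lhx1 0.48 and Six3 0.09 above its mean. At CT 46 they were 0.39, 0.56 and 0.26 above. At CT 48 Lhx1 was 0.52 and Six3 0.31 above its mean. Low arrays for all 3 were CT 28, CT 58 and CT 64, where Six6 was 0.41, 0.31 and 0.69 below its mean. Read on a 24-h clock, the arrays with all 3 genes above their means stood at 20, 22, 0, 8 and 12 h, and those with all 3 below at 2, 4, 6, 10, 14, 16 and 18 h. No time of day held both kinds, and at several times only 1 of the cycles gave such an array.

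The Pearson correlation over the 24 arrays was 0.86 between Six6 and Lhx1 (Spearman's rho 0.85), 0.78 between Six3 and Six6 (rho 0.78) and 0.78 between Six3 and Lhx1 (rho 0.79). Among 13955 other tested genes, Lhx1 ranked 2nd by correlation with Six6, and Six6 ranked 2nd by correlation with Lhx1. Six6 and Lhx1 ranked 3rd and 4th for Six3. The correlations are a description of 36 pairs and carry no p-value: the pairs were chosen with values known, and the arrays share preparation and normalisation.

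The correlation of Six6 with Lhx1 was 0.88 in the second cycle alone and 0.83 in the first, while that of Six3 with Six6 was 0.93 and 0.57 and that of Six3 with Lhx1 0.83 and 0.68. Once the 24-h cosine and the array background had been taken out, the values were 0.86 (Six6 with Lhx1), 0.78 (Six3 with Six6) and 0.83 (Six3 with Lhx1). With CT 40, CT 62 and CT 64 left out they were 0.88, 0.72 and 0.75. Without the 2 arrays farthest from the median of the first gene of each pair they were 0.86, 0.71 and 0.82. The shared movement was thus as large for Six6 and Lhx1 on the remaining arrays as on all 24.

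**Figure D2:**
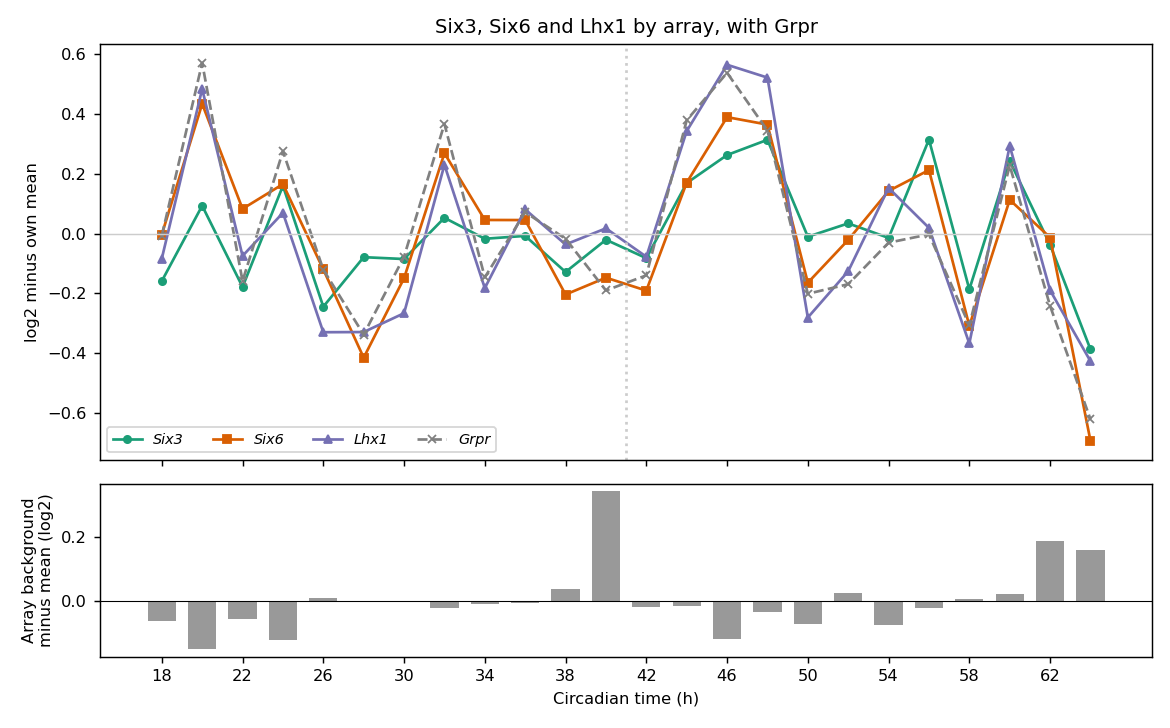
Upper panel, log2 values minus each gene's own mean for Six3, Six6, Lhx1 and, dashed, Grpr, on the 24 arrays in order of circadian time (hours), with a dotted line between the first and second cycle. Lower panel, the array background minus its mean (log2). The 4 genes share peaks at CT 20, CT 44 to CT 48 and CT 60 and a low at CT 64, and the background stands out at CT 40, CT 62 and CT 64. Six3 is highest at CT 56, where Lhx1 and Grpr lie near their means.

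The gene most like Lhx1 over the 24 arrays was Grpr, the receptor for gastrin-releasing peptide, with r = 0.91 (rho 0.88), 0.96 in the second cycle and 0.88 in the first. Grpr was also first for Six6, with r = 0.89 (0.90 in the second cycle and 0.87 in the first). Its log2 values ran from 6.15 at CT 64 to 7.34 at CT 20, with a median of 6.72. The low and high arrays of Grpr were those of Six6.

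Next after each other, Six6 was most like Snx25, a sorting nexin (r = 0.82), and Lhx1 was most like Syt10, a synaptotagmin enriched in the SCN (r = 0.85). The gene most like Six3 was Nms, which encodes the SCN peptide neuromedin S (r = 0.81, with 0.92 in the second cycle and 0.49 in the first), ahead of the zinc finger gene Zfp653 (0.79). Nms was lowest at CT 64 (7.59) and highest at CT 46 (9.01).

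Of 17 tested SCN peptide and receptor genes, a list that also appears in an earlier account of these arrays, 7 correlated with Six6 at r above 0.5, beside 5.73% of all tested genes. The count was 7 for Lhx1 (3.45% of all genes), 4 for Six3 (3.21%), 4 for Zfhx3 (12.2%), 4 for Dlx5 (13.7%), 1 for Dlx1 (1.33%) and 0 for Zfhx4, Dlx2 and Tbx3. With Lhx1 the highest after Grpr were the VIP receptor Vipr2 (r = 0.81), the peptide gene Grp (0.79), Nms (0.72) and the prokineticin receptor Prokr2 (0.71). Prok2, a strongly rhythmic output peptide, was at -0.36 with Lhx1 and -0.13 with Six6, and Sst, for somatostatin, at -0.08 with Lhx1 and -0.002 with Six6. The lowest of the list was the receptor gene Npy2r, at -0.45 with Lhx1, -0.32 with Six6 and -0.57 with Six3. The likeness to Lhx1 therefore differed widely within the peptide list.

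The mean of the SCN peptide and receptor list correlated at 0.81 with Six3, 0.88 with Six6 and 0.81 with Lhx1, while its single genes had median correlations of 0.41, 0.45 and 0.27. The mean of 3 GABA genes was at 0.64 with Six3, 0.56 with Six6 and 0.39 with Lhx1. The means of marker lists of other cells lay between -0.43 and 0.53. The mean of 14 genes of neighbouring hypothalamic nuclei, 13 of them above the filter, ranged from 7.65 to 8.17 in the second cycle and from 7.66 to 8.42 in the first, and its correlation was -0.42 with Six3, -0.32 with Six6 and -0.41 with Lhx1. The mean of 7 astrocyte markers (8.98 to 9.38 in the second cycle, 8.75 to 9.44 in the first) was at 0.32, 0.47 and 0.53 with these genes. The mean of 10 oligodendrocyte markers (8.81 to 9.59 and 8.54 to 9.62) was at 0.02, 0.16 and 0.29, and that of 7 neuronal markers (10.08 to 10.37 and 9.82 to 10.33) at 0.33, 0.29 and 0.10. The mean of 5 ependymal markers (7.82 to 8.29 and 7.90 to 8.19) was at -0.33, -0.38 and -0.43. The astrocyte, oligodendrocyte and pituitary means were each highest in the first cycle at CT 20, also a high array for Six6, Lhx1 and Grpr. The part of these lists in the shared movement was not tested. In pooled tissue, fewer SCN cells in a sample and less RNA of a gene per cell cannot be told apart.

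The other members were less tied to Six3, Six6 and Lhx1. Dlx5 correlated with Six6 at 0.67, with Six3 at 0.66 and with Lhx1 at 0.60, but the values were 0.90, 0.82 and 0.85 in the second cycle and 0.33, 0.24 and 0.15 in the first. Zfhx3 correlated at 0.51 to 0.58 with these genes, at 0.61 with Dlx5, at 0.57 with Dlx2 and at 0.56 with Zfhx4. Dlx1 ran the other way, at -0.27 with Six6 and -0.39 with Lhx1, and Tbx3 was between -0.42 and 0.03 with every other member. Dlx1 and Dlx2, neighbours in the genome that share enhancers, correlated at 0.42, and Dlx5 and its neighbour Dlx6 at 0.51. The members thus did not form 1 group over the arrays.

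**Figure D3:**
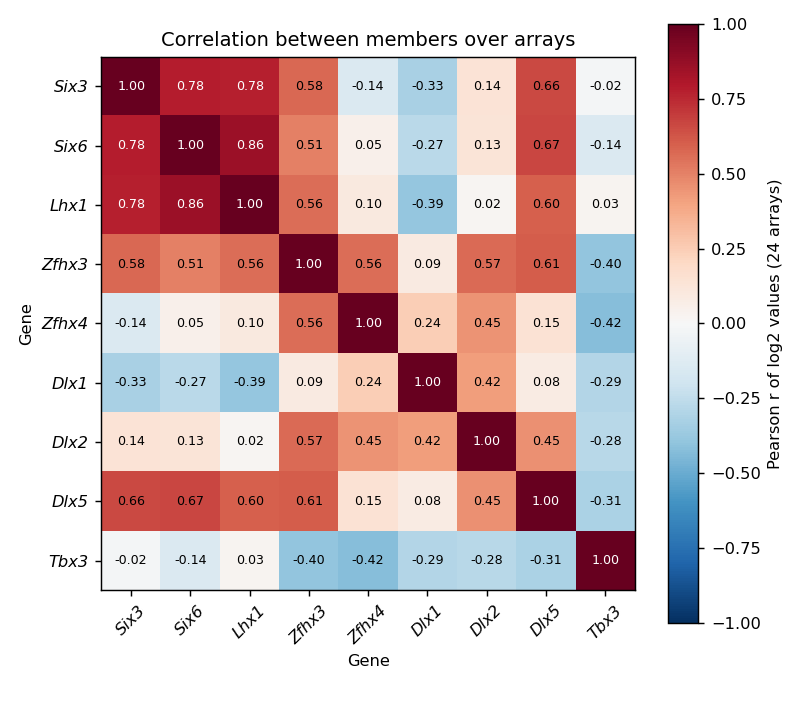
Pearson correlation of log2 values over 24 arrays for each pair of the 9 genes (rows and columns), with red above and blue below 0. Six3, Six6 and Lhx1 form a block at 0.78 to 0.86, Dlx5 and Zfhx3 reach 0.51 to 0.67 with it, and Dlx1 and Tbx3 lie at or below 0.03 with it.

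Zfhx3 was most like Sf1, a splicing factor gene (r = 0.85), Auts2 (0.84) and Rftn1 (0.84), and Zfhx4 most like Nell1 (0.83), Hmgxb3 (0.75) and Jpt2 (0.73). Dlx1 was most like Scml4 (0.76), Gabrq, for a GABA-A receptor subunit (0.74), and Rgs4, a regulator of G protein signalling (0.73). Dlx2 was most like Pcbp3 (0.77), B4galt6 (0.77) and Nr2f2, for the nuclear receptor COUP-TFII (0.77), and Dlx5 most like Ptprj (0.83), Txnl4a (0.83) and Sema5a (0.79). Tbx3 was most like Nkx2-4, a homeobox gene of the ventral hypothalamus (r = 0.73, but 0.48 in the second cycle and 0.82 in the first), then Dzip1l (0.66) and 1700020A23Rik (0.65). The genes nearest to one member were thus not those nearest to another, outside Six3, Six6 and Lhx1.

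The next comparison asked whether these genes rise and fall over 24 h without light. None of the 9 passed limma's moderated F test at an adjusted p under 0.05, beside 1067 of 13956 tested genes (7.65%). At an unadjusted p under 0.05, 2 of the 9 passed (Zfhx3 and Zfhx4), beside 27.5% of all tested genes. Amplitudes, from mean to peak in log2 units, were 0.05 to 0.13 with a median of 0.09 over the 9 genes and 0.07 over all tested genes. For Per2 the amplitude was 0.45 ± 0.03 and for Nr1d1 0.57 ± 0.05 (standard errors of the fit over 24 arrays).

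Zfhx3 came closest. Its log2 values ran from 8.06 to 8.47 with a median of 8.34 in the second cycle and from 8.01 to 8.36 with a median of 8.26 in the first, a 1.38-fold range with the low at CT 34 and the high at CT 48. The second cycle climbed to CT 48 and then declined to CT 64 apart from CT 54, whereas the first showed no single crest. The fitted amplitude was 0.11 ± 0.03 with a peak at 1.50 h (limma, adjusted p = 0.0672), and the joint 95% region for the amplitude was 0.03 to 0.19, a trough-to-peak ratio of 1.16 at the fitted value. The amplitude was 0.15 ± 0.04 in the second cycle alone and 0.07 ± 0.05 in the first.

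Zfhx3 was near the threshold, and its side depended on the fit. It was called with the mean of oligodendrocyte markers as a covariate (limma, amplitude 0.12, adjusted p = 0.0190) and with linear time as a covariate (0.13, adjusted p = 0.0448). It was also called when CT 26 (adjusted p = 0.0494) or CT 30 (0.0337) was left out. Over all 13956 tested genes these fits called 3364, 898, 1437 and 1440 in that order, beside 1067 without such changes. With the array background as a covariate the amplitude was 0.08 (limma, adjusted p = 0.326), and without CT 40, CT 62 and CT 64 it was 0.09 (adjusted p = 0.205). Over all tested genes the calls fell to 534 and 679. Zfhx3 correlated at -0.53 with the array background and at 0.52 with the neuronal marker mean, of which 4 of 7 genes were called rhythmic with peaks from 1.04 to 3.07 h. With the neuronal mean as a covariate the amplitude of Zfhx3 was 0.09 (limma, adjusted p = 0.578), and 143 of all tested genes were called. Because that mean holds rhythmic genes that peak at these hours, the fit also takes out 24-h signal of that phase. It therefore cannot tell where the Zfhx3 values came from.

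Zfhx4 had log2 values from 7.82 to 8.16 with a median of 8.06 in the second cycle, and from 7.65 to 8.25 with a median of 8.03 in the first. Its amplitude was 0.10 ± 0.03 with a peak at 23.9 h (limma, adjusted p = 0.130). Among the alternatives it was called only with the oligodendrocyte covariate (0.11, adjusted p = 0.0412), a fit that called 3364 of all 13956 tested genes. The peaks of Zfhx3 and Zfhx4 lay at 1.78 and 1.71 h in the second cycle and at 0.90 and 22.3 h in the first.

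Six3, Six6 and Lhx1 had no called 24-h rhythm, and the bounds for Lhx1 and Six6, the genes of widest scatter, were the widest of the 9. The amplitude of Lhx1 was 0.13 ± 0.07 with a peak at 20.7 h (limma, adjusted p = 0.394), and the joint region reached 0.32. That of Six6 was 0.10 ± 0.07 (adjusted p = 0.534), with an upper bound of 0.28, and that of Six3 0.05 ± 0.05 (adjusted p = 0.697), with an upper bound of 0.18. These upper bounds lie below the fitted amplitudes of Per2 and Nr1d1, but those of Lhx1 and Six6 lie above 0.20, the amplitude of the called gene Gad1.

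The distal-less genes showed smaller scatter. Dlx1 ranged from 7.56 to 8.01 with a median of 7.73 in the second cycle and from 7.46 to 8.01 with a median of 7.78 in the first. Dlx2 ranged from 6.49 to 7.10 with a median of 6.84 in the second cycle and from 6.50 to 6.98 with a median of 6.78 in the first. Dlx5 ranged from 7.59 to 8.06 with a median of 7.91 in the second cycle and from 7.53 to 8.03 with a median of 7.80 in the first. In each of the 3 genes the cycles overlapped. Their 24-h amplitudes were 0.06 ± 0.04, 0.09 ± 0.04 and 0.07 ± 0.04, with upper bounds of 0.17, 0.20 and 0.17 (limma, adjusted p = 0.557, 0.356 and 0.382). Dlx2, with 2 E-boxes in the window shown above, was thus not called.

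Gad1 and Gad2, the GABA synthesis genes that DLX proteins are known to activate in the developing forebrain, were called rhythmic, with amplitudes of 0.20 ± 0.04 and 0.15 ± 0.03 and peaks at 2.99 and 2.58 h (limma, adjusted p = 0.0129 and 0.0102). The called general neuronal markers peaked over the same hours (1.04 to 3.07 h), and a link of Gad1 and Gad2 to the Dlx genes was not tested. Tbx3 ranged from 5.88 to 6.22 with a median of 6.07 in the second cycle, and from 5.80 to 6.43 with a median of 6.02 in the first. Its amplitude was 0.06 ± 0.04 with an upper bound of 0.17 (adjusted p = 0.578). It was the only member fitted with a peak in the subjective night (14.3 h) apart from Lhx1 and Zfhx4, whose fitted peaks fell late in the night.

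**Figure D4:**
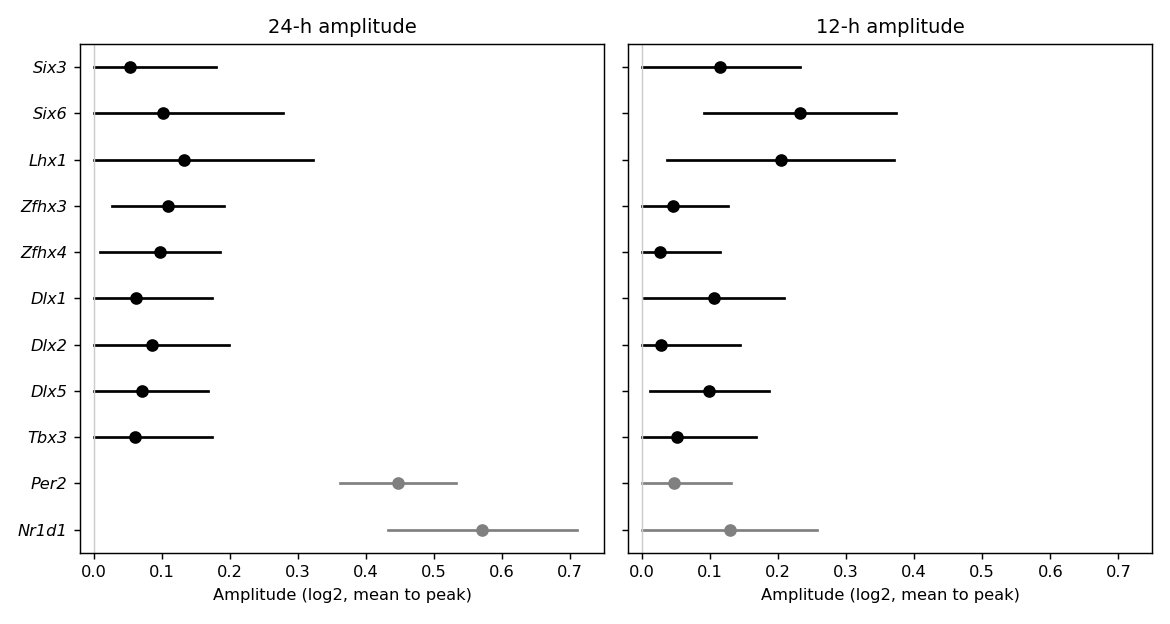
Fitted amplitude (log2 units, mean to peak, horizontal axis) of the 24-h cosine (left) and of the 12-h cosine (right) for the 9 genes (black) and for Per2 and Nr1d1 (grey). Points are estimates over 24 arrays and bars the joint 95% regions, cut at 0. All 9 genes have 24-h amplitudes of 0.13 or less against 0.45 and 0.57 in the clock genes, and Six6 has the highest 12-h amplitude of those shown at 0.23.

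A 12-h cosine beside the 24-h terms asked for changes that recur within a day. None of the 9 was called, beside 5 of 13956 tested genes (0.0358%). At an unadjusted p under 0.05, 4 of the 9 passed (Six6, Lhx1, Dlx5 and Dlx1), beside 21.9% of all tested genes. The median 12-h amplitude was 0.10 over the 9 genes and 0.06 over all tested genes.

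Six6 had a 12-h amplitude of 0.23 ± 0.05, with crests at 9.58 h and 12 h later (limma, adjusted p = 0.103). Lhx1 had 0.20 ± 0.06 with a crest at 9.54 h (adjusted p = 0.155), and Six3 0.12 ± 0.05 at 9.999 h (adjusted p = 0.236). Dlx5 had 0.10 ± 0.03 at 10.5 h (adjusted p = 0.178) and Dlx1 0.11 ± 0.04 at 1.45 h (adjusted p = 0.212). The crests of Six6, Lhx1, Six3 and Dlx5 fell between 9.54 and 10.5 h, and that of Dlx1 did not. Those genes correlated over the same arrays, so their crests are not separate observations. The crest of Zfhx3, also uncalled, was at 10.6 h. With the array background as a covariate the amplitude of Six6 was 0.21 (adjusted p = 0.736), and its adjusted p ran from 0.0573 to 0.190 when single arrays were left out.

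Values at the same circadian time in the 2 cycles gave a further view of repetition. Over the 12 times, second-cycle and first-cycle values correlated at 0.66 for Dlx5, 0.46 for Zfhx3, 0.43 for Six6, 0.42 for Lhx1 and 0.34 for Six3. The values were 0.28 for Dlx2, 0.25 for Dlx1, 0.00 for Zfhx4 and -0.43 for Tbx3. Per2 and Nr1d1 gave 0.94 and 0.90, and the median over all tested genes was 0.22. The pattern over time was thus repeated less well in each member than in those clock genes.

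The last comparisons set the second cycle of darkness against the first. No member was called by limma, and neither was any of the 13956 tested genes (0%; 1216 at an unadjusted p under 0.05, or 8.71%, none of them a member). The largest difference was in Six3, which averaged 6.70 ± 0.22 in the second cycle and 6.60 ± 0.12 in the first (SD, n = 12 arrays each). The difference was 0.10 with a 95% interval from -0.04 to 0.24 (limma, adjusted p = 0.664). Zfhx3 averaged 8.30 ± 0.13 in the second cycle and 8.22 ± 0.12 in the first, a difference of 0.08 (-0.01 to 0.16, adjusted p = 0.628). Six6 averaged 7.97 ± 0.31 in the second cycle and 7.97 ± 0.23 in the first, with an interval from -0.20 to 0.20 for the difference. The remaining differences lay between -0.04 and 0.09, and the intervals leave room for changes of up to 0.28 in Lhx1.

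**Figure D5:**
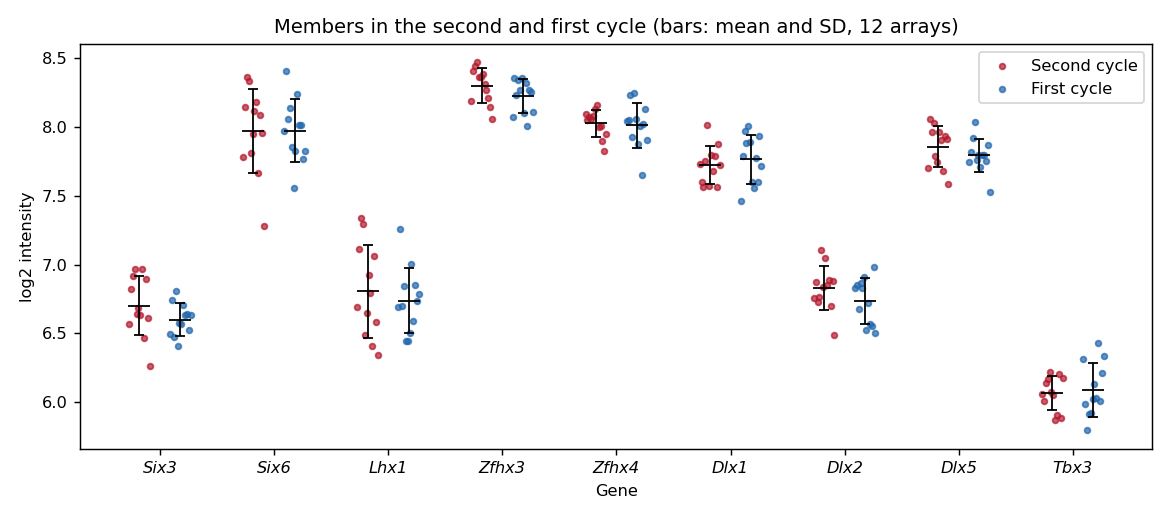
Log2 intensity (vertical axis) of the 9 genes on the 12 arrays of the second cycle (red, left of each pair) and the 12 of the first cycle (blue, right), with means and SDs in black. The cycles overlap in every gene, and the largest difference of means is 0.10 in Six3.

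A change of amplitude or peak time between the cycles was called for no member and no gene (0%; 338 genes at an unadjusted p under 0.05, or 2.42%, with Tbx3 as the only member). Tbx3 had a fitted amplitude of 0.08 ± 0.05 with a peak at 22.8 h in the second cycle and of 0.18 ± 0.06 with a peak at 12.8 h in the first (limma, unadjusted p = 0.00912, adjusted p = 0.9999). Lhx1 had 0.22 ± 0.10 at 23.1 h in the second cycle and 0.15 ± 0.08 at 17.1 h in the first (adjusted p = 0.9999). For Per2 the peak was at 9.65 h in the second cycle and 9.41 h in the first.

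Related factors gave a similar picture. The counts called over 24 h in each list stand beside 7.65% of all 13956 tested genes. Of 17 tested relatives in the sine oculis, LIM-homeobox, ZFHX, DLX and T-box families, 1 was called over 24 h, Zfhx2, a further zinc finger homeobox gene (amplitude 0.13 ± 0.04, peak at 4.50 h, limma, adjusted p = 0.0499). Of 27 tested transcription factors that pattern the hypothalamus, 1 was called, the POU factor Pou3f2 (0.29 ± 0.05, peak at 14.9 h, adjusted p = 0.00526). The median amplitudes of the lists were 0.07 and 0.06, beside 0.07 over all tested genes. Of the 17 SCN peptide and receptor genes 4 were called (Prok2, Avpr1a, Vipr2 and Avp), with a list median of 0.16. Vipr2, the receptor that followed Lhx1 closely over arrays, peaked at 20.5 h with amplitude 0.38 ± 0.07 (limma, adjusted p = 0.00942). Lhx1, which was not called, had a fitted peak at 20.7 h, but at 23.1 h in the second cycle alone and 17.1 h in the first. Vipr2 was picked for its correlation with Lhx1 on these arrays, so the nearness of the peaks adds nothing to it. None of these lists had a member called for the 12-h cosine, for the difference between cycles or for a change in rhythm.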

How the data were processed

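RNA of 3 pooled SCN samples per time point was amplified and biotin-labelled for Affymetrix arrays, per the labels' protocols. As deposited, the table gives log2 intensity per probe set after RMA by the authors (version 1.3.1.187, Affymetrix Expression Console, per the submitters' processing notes); the background and summarisation settings and the genome build are not given in the sources used here. RMA scales all arrays to a common distribution of probe values, so differences are relative to the whole array. The table held 35556 probe sets, of which 21789 had 1 gene symbol, 1621 several and 12146 were not listed in the platform annotation.

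Each of 19938 genes was represented by its brightest probe set, and 13956 at or above the 30th percentile of means (log2 5.52) were tested. Arrays were grouped into cycles by their titles. Fits of cosine and sine terms used limma 3.58.1 (R 4.3.3). Its moderated tests were adjusted by the Benjamini-Hochberg method over all tested genes and called at 0.05, with 21 residual degrees of freedom for the 24-h fit. P-values measure only the scatter of these single pools around the fit. The difference between cycles was a two-sided moderated t test, and the other comparisons were moderated F tests of cosine and sine terms. The fits were tested on simulated data. The simulated 24-h rhythms were all larger than those fitted for the members, so recovery at the members' sizes was not checked. The joint 95% region of an amplitude is the circle around the fitted cosine and sine terms. Python 3.11.15 and matplotlib 3.10.9 drew the figures. Promoter sequences came from RefSeq.

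The members, lists and tests were chosen with earlier results of these data known. The text names every member, the 3 tested genes most correlated with each (a gene already named for it once), Per2 and Nr1d1, and called members of the lists, up to 4 per list. Beyond that rule, genes of the peptide list named for their correlation with Lhx1, Six6 or Six3 were chosen after their values were seen, as were the settings tried for correlations. Alternatives covered the filter, probe sets, normalisation, weights, prior, covariates, threshold and left-out arrays.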

Additional observations from a re-analysis of the deposited data

How the results depend on the processing

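No member was called for the 12-h cosine, the difference between cycles or the change in rhythm in any alternative run. For the 24-h rhythm the count of members called was 0 except for 2 with the oligodendrocyte covariate, 1 with linear time and 0 to 1 when single arrays were left out. Over all genes the 24-h count, 1067, was 534 with the array background covariate, 3364 with the oligodendrocyte covariate, 143 with the neuronal covariate, 679 without CT 40, CT 62 and CT 64, 170 at a threshold of 0.01, and 704 (without CT 28) to 1440 when single arrays were left out. The count for the difference between cycles was 5 with array weights, 66 with the array background covariate, 2 with the neuronal covariate and 0 to 1 when single arrays were left out. The 12-h count, 5, was 8 at the 50th percentile filter, with array weights or with a trended prior, and 11 with median centring. It was 0 with no filter, all probe sets, quantile normalisation, each of the 3 covariates, without CT 40, CT 62 and CT 64 and at a threshold of 0.01, and 0 to 9 when single arrays were left out. For members, part of the sameness across alternatives was fixed in advance. Amplitudes and changes in rhythm have no sign, and a member uncalled at 0.05 cannot be called at 0.01. Members have 1 probe set each, so using all probe sets left their estimates as they were. Among members, and apart from the runs that left out single arrays, 445 of 455 values kept their direction and side, a count that includes these fixed cases. The 7 that changed sign were uncalled differences between cycles near 0: Six6, at 0.00305 with median centring, 0.0110 with array weights, 0.00885 with the array background covariate and 0.0563 without CT 40, CT 62 and CT 64; Tbx3, at 0.00316 with array weights and 0.00882 without those arrays; and Zfhx4, at -0.00538 with the oligodendrocyte covariate. When single arrays were left out, the difference between cycles also changed sign in Six6 (-0.0469 to 0.0638), Zfhx4 (-0.0112 to 0.0362) and Tbx3 (-0.0544 to 0.00398), all uncalled. The correlation of Six3 with Six6 was 0.93 in the second cycle alone. The cause of these changes was not tested. With the 12 circadian times as a factor, which pairs second-cycle and first-cycle arrays taken 24 h apart, the difference between cycles was called for no member and no gene. With 1 pool per time, differences within the spread of pools were not detectable.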
